A study of Homo sapiens with 6 samples.

Results

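Collagen chain genes were compared between ADI-PEG20 resistant and parental cells of Ju77, an established human line of malignant mesothelioma. The drug, arginine deiminase coupled to polyethylene glycol, breaks down arginine outside the cell. The members are all probes whose gene symbol has the form COL, a number, A and a number. They come to 73 probes for 43 chains, of 20044 genes named on the array. Each group consists of 3 arrays of RNA taken the day after plating, 3 of the resistant line and 3 of the parental line. The sources used here do not say how resistance was obtained or whether drug was present at plating. Each group is 1 line with repeats, and the labels do not say whether these were separate cultures, so the p-values cover only how far these 6 samples spread, and that spread may be technical. Resistance and whatever else separates the lines cannot be told apart.

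Collagens are secreted proteins built as trimers of chains that wind around each other. Fibrillar types form the tensile fibres of connective tissue, type IV forms the sheet of the basement membrane, and the remaining types link, anchor or decorate these structures or stand in the cell membrane. Mesothelial cells rest on a basement membrane, and mesotheliomas are known for variable amounts of collagenous stroma. Chains are hydroxylated and folded in the endoplasmic reticulum, trimmed by proteases and cross-linked outside the cell.

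Between 19024 and 20113 probes per array were detected (detection p-value under 0.05), and the mean intensity ran from 415 to 454 on resistant arrays and from 470 to 499 on parental arrays. Of 8 mesothelial markers, every resistant array detected 5 and every parental array 6 (PDPN in addition), and KRT5 was on no array. Of the 6 tested, CALB2 was higher and BNC1, LRRN4 and PDPN were lower in the resistant cells, while MSLN and WT1 did not pass the test. PDPN entered the test through the parental arrays alone. None of 8 endothelial markers was detected on any array, nor were the leukocyte markers PTPRC, CD3E, CD14, ITGAM and LYZ. CD68, the leukocyte marker detected on all arrays of both groups, was higher in the resistant cells (log2 difference 0.25, limma adjusted p = 0.0452), and the summed normalised signal of the list ran from 893 to 956 on resistant arrays and from 761 to 839 on parental arrays. The fibroblast markers PDGFRA, THY1, DCN, LUM and DPT were on no array. The summed normalised signal of the 8 fibroblast markers ran from 1212 to 1313 on resistant arrays and from 285 to 325 on parental arrays, but the tested members moved in opposite directions. MFAP5, detected on all arrays of both groups, was higher in the resistant cells, and FBLN1, detected on all parental arrays and no resistant array, was lower. FBLN1 was tested only because the parental arrays, where it is high, detected it, so the size of its fall is not measured. MFAP5 is the only tested fibroblast marker detected in both groups. The part of these markers in the results was not tested. In whole-culture RNA, more cells of a kind and more transcript per cell cannot be told apart.

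A chain was tested where a probe was detected on all arrays of at least 1 group. This left 18 chains, 15 of them detected on all 6 arrays. The other 3 passed through 1 group: COL1A2 and COL27A1 through the resistant arrays and COL16A1 through the parental arrays. Levels below are log2 signals after background correction and quantile normalisation, for the brightest tested probe of each chain, and differences are resistant minus parental.

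Most tested chains were higher in the resistant cells. Of the 18, 11 rose, 2 fell and 5 did not pass the threshold (limma, adjusted p under 0.05 over 10672 genes). Among all tested genes, 22.4% rose and 23.0% fell, against 61.1% and 11.1% of the tested chains. In either direction 72.2% of the tested chains and 45.4% of all genes were called. The median log2 difference of the tested chains was 0.59, or 0.50 with COL1A2 at its bound, and that of all tested genes was -0.004. The groups did not overlap for 14 of the 18 chains, where 56.0% of all genes had no overlap. All resistant arrays were above all parental arrays for 11 chains and below them for 3, against 27.4% and 28.6% of all genes. Fibrillar chains rose in 4 of 5, type IV chains in 3 of 4 and the remaining chains in 4 of 9, and both falls were in the last class. Since 3 chains entered through 1 group alone, the counts were also taken over the 15 chains detected on all 6 arrays, where 11 rose and 2 fell, with 3 of 3 fibrillar, 4 of 4 type IV and 4 of 8 remaining chains higher. Of all 9692 genes detected on all 6 arrays, 2267 rose and 2236 fell. COL4A4 passed in that smaller set of genes (limma adjusted p = 0.0427). Scaling arrays to a common median shifted all genes by a median of -0.15 and left 10 chains higher and 3 lower, with a collagen median 0.63 above that of all genes. Among all genes it gave 1466 higher and 3774 lower, against 2387 and 2456 in the fit used here.

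**Figure D1:**
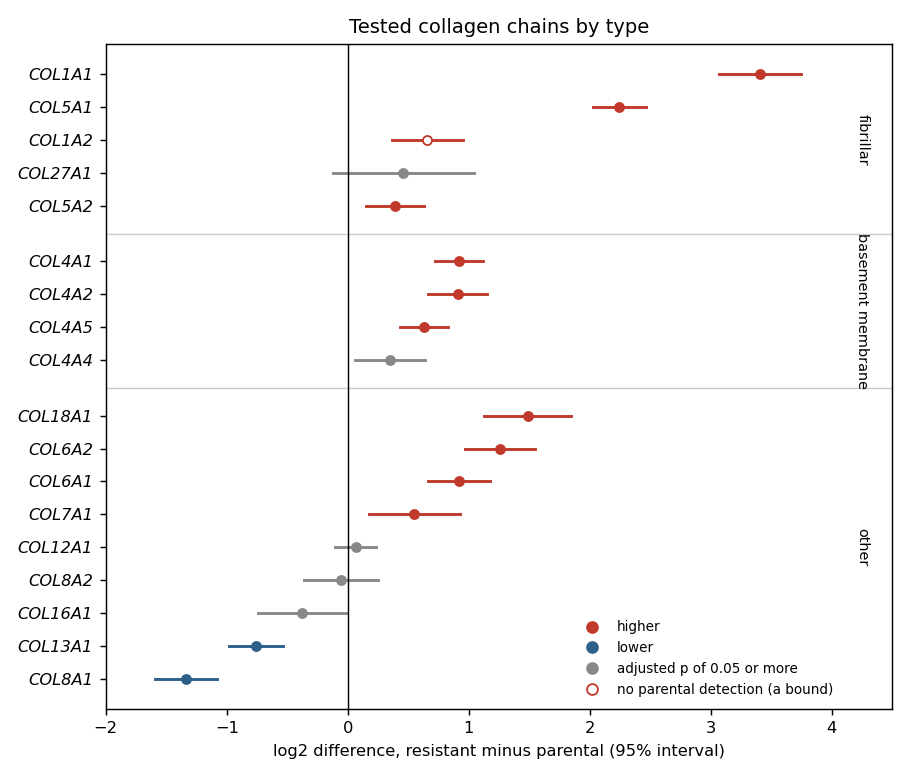
Log2 difference between resistant and parental arrays for each of the 18 tested collagen chains, with its 95% interval, arranged by type (3 arrays per group). COL1A1 at 3.41 and COL5A1 at 2.24 lie farthest to the right, and COL8A1 at -1.34 farthest to the left. The open point, COL1A2, was undetected on the parental arrays, so its position is not a measured fold.

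Among the fibrillar chains, COL1A1, which encodes the chain present in 2 copies in most type I collagen molecules, changed most. Its log2 signal was 9.04, 8.78 and 8.77 on the resistant arrays, against 5.73, 5.46 and 5.18 on the parental arrays. Every resistant array lay more than 3 log2 units above every parental array, and the difference was 3.41 (SE 0.15, 10.6-fold, limma adjusted p = 1.83e-06), the sixth largest rise of the 2387 genes called higher. Without background correction the log2 difference was 1.97. COL1A2, the partner chain of type I collagen, was dim on all arrays. It had log2 signals of 5.15, 5.49 and 5.28 on the resistant arrays and 4.45, 4.85 and 4.66 on the parental arrays, and no parental array passed detection. It was at least 1.29-fold higher in the resistant cells (limma adjusted p = 0.00405). It was tested only because the resistant arrays, where it is high, detected it, and its second probe was detected on no array.

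COL5A1 and COL5A2 encode chains of type V collagen, which starts and limits the growth of type I fibrils. COL5A1 had log2 signals of 11.14, 11.24 and 11.38 in the resistant cells, against 9.06, 8.89 and 9.08 in the parental cells. The groups lay far apart, with a difference of 2.24 (SE 0.09, 4.74-fold, limma adjusted p = 1.80e-06). COL5A2 had log2 signals of 9.95, 10.05 and 10.07 in the resistant cells and 9.48, 9.84 and 9.58 in the parental cells. Its groups lay close without overlapping, and the difference was 0.39 (SE 0.10, limma adjusted p = 0.0169). This call was lost without resistant replicate 2 (adjusted p = 0.0519), without parental replicate 1 (adjusted p = 0.0609), without parental replicate 3 (adjusted p = 0.0569) and under median scaling (log2 difference 0.18, adjusted p = 0.163).

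COL27A1, a minor fibrillar chain best known from cartilage, gave log2 signals of 5.23, 5.09 and 6.15 in the resistant cells, against 4.89, 5.21 and 5.01 in the parental cells. The groups overlapped, with resistant replicate 3 standing above the rest, and the gene did not pass the test (log2 difference 0.46, limma adjusted p = 0.174). Without that array the difference was 0.13. The other 6 fibrillar chains on the array were not tested. COL2A1, COL3A1 and COL5A3 were detected on no array. COL3A1 encodes the fibrillar chain that accompanies type I collagen in soft tissues. COL24A1 was detected on 2 resistant arrays and no parental array, COL11A2 on 2 resistant arrays and 1 parental array, and COL11A1 on 1 resistant array.

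The 250 bases before the start of COL5A1 are shown because it is, among the tested fibrillar chains, the one with the largest rise whose upstream sequence is in the RefSeq promoter table used here (GRCh38.p14). They lie at chr9:134641553-134641802 on the plus strand and are printed 5′ to 3′, with capitals for matches to GGGCGG, a GC box, on either strand:
COL5A1: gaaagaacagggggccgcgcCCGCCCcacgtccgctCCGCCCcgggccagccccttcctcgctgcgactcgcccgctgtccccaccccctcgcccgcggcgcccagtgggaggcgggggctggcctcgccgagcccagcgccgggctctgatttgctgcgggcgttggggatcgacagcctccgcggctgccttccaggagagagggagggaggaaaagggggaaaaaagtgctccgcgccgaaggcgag
The stretch held 2 such matches, both on the minus strand, no match to CCAAT on either strand, and none to the letters TATAAA. Of 35116 promoter windows of this length, 42.6% held GGGCGG, 32.0% held CCAAT and 10.7% held TATAAA. These are matches of letters and say nothing of binding.

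**Figure D2:**
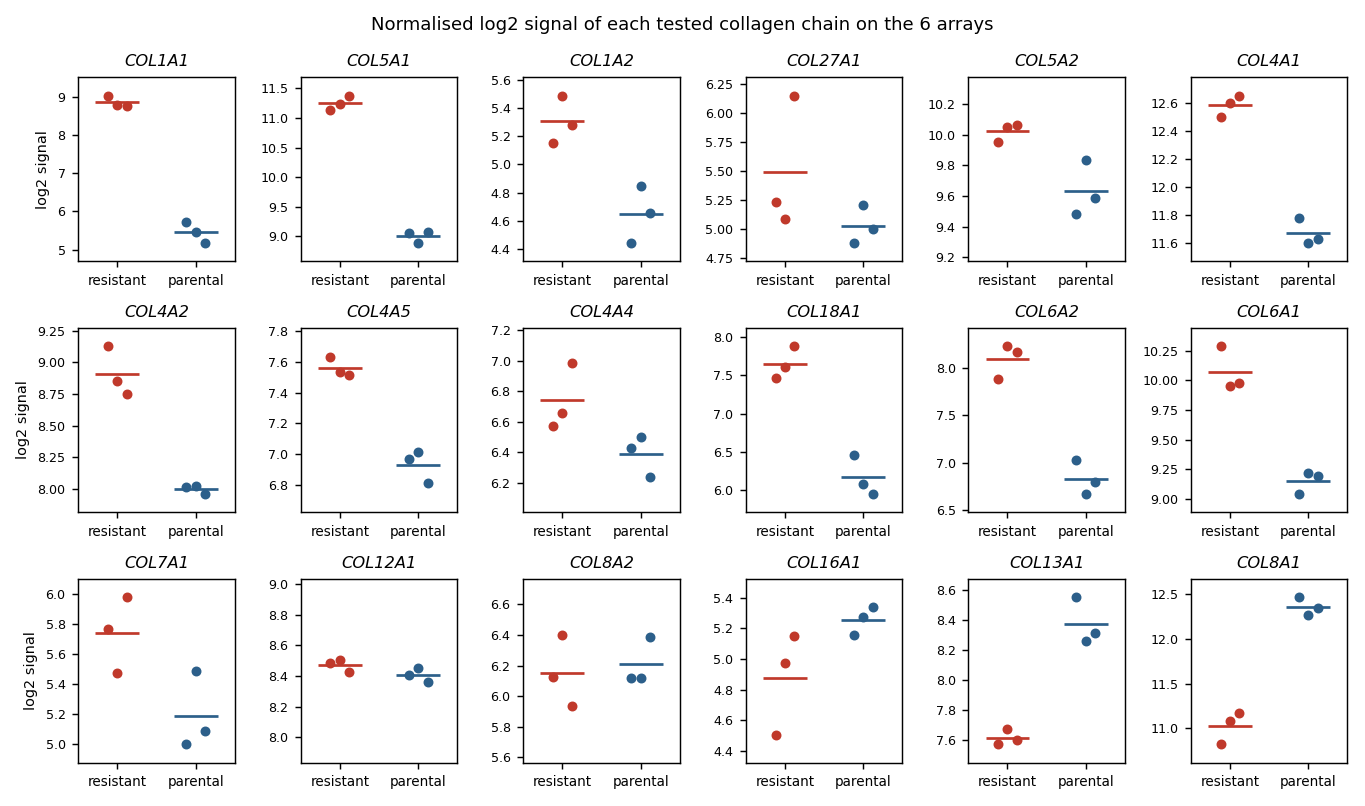
Normalised log2 signal of each of the 18 tested chains on the 3 resistant arrays (left, red) and the 3 parental arrays (right, blue), with a line at each group mean. The vertical scale differs between panels. Groups are apart for 14 chains and overlap for COL27A1, COL7A1, COL12A1 and COL8A2.

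The genes of type IV collagen lie head to head in pairs, each pair reading outwards from a short shared stretch. COL4A1 and COL4A2, whose products form the common network of basement membranes, were both detected on all arrays. COL4A1 had log2 signals of 12.50, 12.60 and 12.65 in the resistant cells, against 11.77, 11.60 and 11.63 in the parental cells. COL4A2 had log2 signals of 9.12, 8.85 and 8.75 in the resistant cells and 8.01, 8.03 and 7.96 in the parental cells. All resistant values of both chains exceeded all parental values. The differences were 0.92 (SE 0.09, limma adjusted p = 1.09e-04) for COL4A1 and 0.91 (SE 0.11, limma adjusted p = 3.20e-04) for COL4A2.

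COL4A5, part of the specialised networks of kidney and other tissues, also rose. Its log2 signals were 7.63, 7.54 and 7.52 in the resistant cells, against 6.96, 7.02 and 6.81 in the parental cells, a difference of 0.63 (SE 0.09, limma adjusted p = 7.19e-04). Its head-to-head neighbour COL4A6 was detected on no array by any of its 3 probes. COL4A4 had log2 signals of 6.57, 6.66 and 6.99 in the resistant cells, against 6.43, 6.50 and 6.24 in the parental cells. The groups were apart by a narrow margin and the gene missed the threshold (log2 difference 0.35, 95% interval 0.06 to 0.64, limma adjusted p = 0.0507). In 9 of the 19 other settings it passed, among them the fit without resistant replicate 1 (adjusted p = 0.0357). Some of the 9 passed barely, such as the fit without background correction (adjusted p = 0.0496) and that of the deposited log2 values (adjusted p = 0.0498). Without resistant replicate 3 the difference was 0.23 (limma adjusted p = 0.132), and under median scaling 0.22 (limma adjusted p = 0.195). Its neighbour COL4A3, with which it shares a trimer, was detected on no array.

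The 3 shared stretches are shown because both chains were measured from the first and only 1 chain from each of the others. They are plus-strand RefSeq sequence (GRCh38.p14), printed 5′ to 3′, with capitals for matches to CCAAT, and likewise to GGGCGG, on either strand. The first lies at chr13:110307158-110307283 and spans the 126 bases between the starts of COL4A1 and COL4A2. The second, at chr2:227164489-227164623, spans the 135 bases between COL4A4 and COL4A3. The third, at chrX:108439588-108439837, is the 250 bases before COL4A5, of 379 between it and COL4A6.
COL4A1 and COL4A2: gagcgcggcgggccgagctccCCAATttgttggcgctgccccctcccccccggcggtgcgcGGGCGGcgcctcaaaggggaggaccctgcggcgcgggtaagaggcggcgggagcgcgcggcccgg
COL4A4 and COL4A3: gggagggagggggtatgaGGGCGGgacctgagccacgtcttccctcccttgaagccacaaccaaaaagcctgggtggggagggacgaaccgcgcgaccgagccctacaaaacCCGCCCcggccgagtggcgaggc
COL4A6 and COL4A5: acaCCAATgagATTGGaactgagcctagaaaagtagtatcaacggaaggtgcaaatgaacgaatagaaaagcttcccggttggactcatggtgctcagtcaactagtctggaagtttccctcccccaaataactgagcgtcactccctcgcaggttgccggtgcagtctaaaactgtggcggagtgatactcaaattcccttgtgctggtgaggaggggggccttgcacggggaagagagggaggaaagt
The COL4A1 and COL4A2 stretch held 1 CCAAT and 1 GGGCGG, and among promoter windows of its length 21.1% held CCAAT and 34.6% held GGGCGG. The COL4A4 and COL4A3 stretch held 2 GGGCGG matches and no CCAAT, where 35.5% of windows of its length held GGGCGG and 22.1% CCAAT. The COL4A5 stretch held 2 CCAAT matches and no GGGCGG, where 32.0% of windows of its length held CCAAT and 42.6% GGGCGG. None of the 3 stretches held TATAAA.

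The chains outside these classes moved both ways. COL6A1 and COL6A2 encode chains of type VI collagen, which forms beaded filaments around cells. COL6A1 had log2 signals of 10.29, 9.95 and 9.98 in the resistant cells, against 9.05, 9.22 and 9.19 in the parental cells, a difference of 0.92 (SE 0.11, limma adjusted p = 3.67e-04). COL6A2 had log2 signals of 7.88, 8.22 and 8.17 in the resistant cells and 7.03, 6.67 and 6.80 in the parental cells, a difference of 1.26 (SE 0.13, limma adjusted p = 1.51e-04). Neither chain's groups overlapped. COL6A3, the third chain of the usual type VI trimer, was detected on 1 parental array and no resistant array, and COL6A5 and COL6A6 on none and on 1 resistant array.

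COL18A1, a collagen of basement membrane zones and the precursor of endostatin, had the largest rise in this class. Its log2 signals were 7.47, 7.60 and 7.88 in the resistant cells, against 6.46, 6.08 and 5.95 in the parental cells, a difference of 1.49 (SE 0.15, 2.80-fold, limma adjusted p = 1.86e-04). A second COL18A1 probe was detected on 1 resistant array and was not tested. COL7A1, the chain of the fibrils that anchor epithelial basement membranes, was dim, with log2 signals of 5.76, 5.47 and 5.98 in the resistant cells, against 4.99, 5.48 and 5.08 in the parental cells. Its groups overlapped at 1 array each, and the difference was 0.55 (SE 0.16, limma adjusted p = 0.0257). The call was lost without the detection filter (adjusted p = 0.0545), and on leaving out resistant replicate 1 (adjusted p = 0.0664), resistant replicate 3 (adjusted p = 0.0787), parental replicate 1 (adjusted p = 0.0873) or parental replicate 3 (adjusted p = 0.0799).

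COL8A1, a short chain that forms hexagonal networks beneath endothelia, had the largest fall. Its log2 signals were 10.82, 11.08 and 11.17 in the resistant cells, against 12.47, 12.27 and 12.35 in the parental cells, a difference of -1.34 (SE 0.11, 2.53-fold lower, limma adjusted p = 5.75e-05). The groups were more than 1 log2 unit apart. COL8A2, its partner chain, had log2 signals of 6.12, 6.40 and 5.93 in the resistant cells, against 6.12, 6.12 and 6.39 in the parental cells. The groups overlapped, and the test was not passed (log2 difference -0.06, 95% interval -0.37 to 0.25, limma adjusted p = 0.749). COL13A1, a collagen anchored in the cell membrane, was the other chain that fell. It had log2 signals of 7.57, 7.67 and 7.60 in the resistant cells and 8.55, 8.26 and 8.31 in the parental cells, with no overlap and a difference of -0.76 (SE 0.10, limma adjusted p = 5.12e-04).

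COL12A1 and COL16A1 belong to the collagens that attach to the surface of fibrils. The brightest COL12A1 probe had log2 signals of 8.48, 8.50 and 8.43 in the resistant cells and 8.41, 8.45 and 8.36 in the parental cells, and did not pass the test (log2 difference 0.06, 95% interval -0.11 to 0.23, limma adjusted p = 0.513). Under median scaling this value was -0.11. COL16A1 was detected on 1 resistant array and on every parental array. Its log2 signals were 4.51, 4.98 and 5.15 in the resistant cells, against 5.16, 5.28 and 5.34 in the parental cells. The groups touched without overlapping, and the gene did not pass the test (log2 difference -0.38, limma adjusted p = 0.0833), though it did without resistant replicate 3 (adjusted p = 0.0301) and under median scaling (adjusted p = 0.0450). Without resistant replicate 1 the difference was -0.19 (limma adjusted p = 0.163).

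Of the 43 chains, 25 were not tested. Of these, 16 were detected on no array by any probe, and 9 on some arrays but on all 3 of neither group. The 16 were the 3 fibrillar chains above, COL4A3 and COL4A6, and 11 others, namely COL6A5, COL9A1, COL9A2, COL9A3, COL10A1, COL14A1, COL15A1, COL21A1, COL22A1, COL26A1 and COL28A1. COL9A1 to COL9A3 and COL10A1 are chains known from cartilage. COL20A1 was detected on 2 resistant arrays and 1 parental array, COL23A1 on 1 resistant array, and COL19A1 and COL25A1 on 1 parental array each. The untested probes had log2 signals between 4.24 and 5.50, whereas the lowest signal of a detected probe was between 4.91 and 4.99 on each array.

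**Figure D3:**
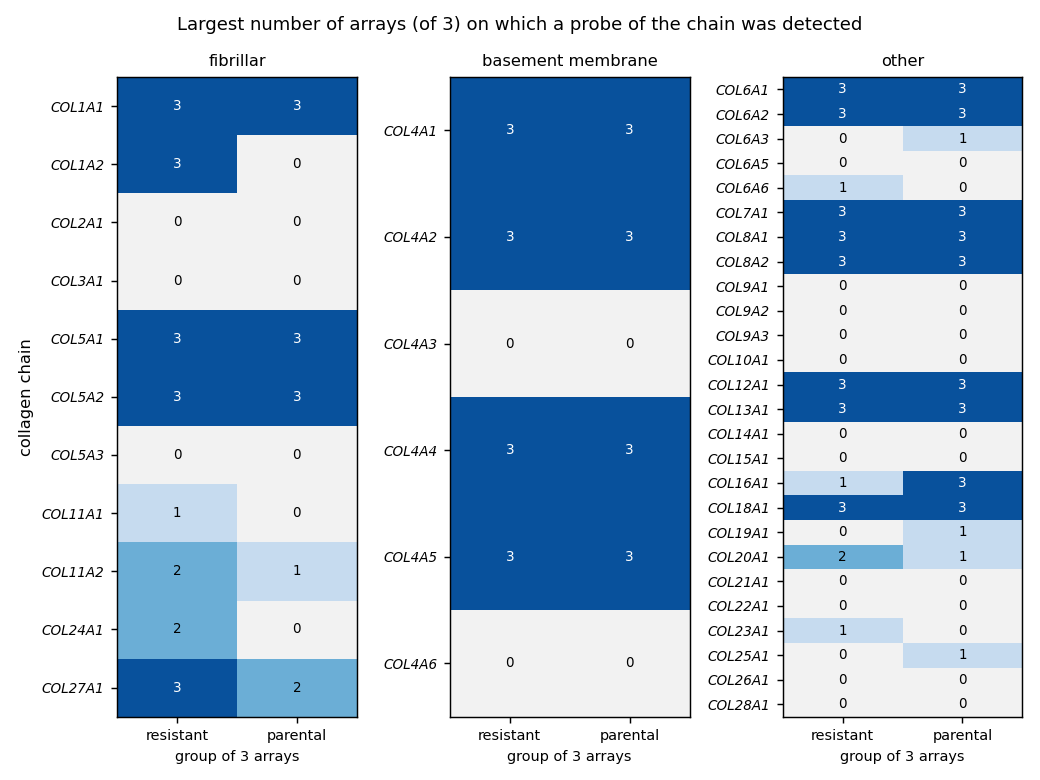
Number of arrays, of 3 per group, on which a probe of each collagen chain was detected, taking the largest number over its probes (resistant left, parental right). Of the 43 chains, all resistant arrays detected 17, all parental arrays detected 16, and 16 were on no array.

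When each of the 22 tested collagen probes was taken by itself, 12 were higher and 5 lower (limma, adjusted over 14197 probes, of which 20.8% were higher and 21.8% lower). Of the 43 chains, 3 had more than 1 tested probe. The 3 COL8A1 probes gave log2 differences of -1.34, -1.38 and -1.69. The 2 tested COL6A2 probes gave differences of 1.26 and 0.98. COL12A1 had 2 tested probes of unlike signal. The brighter, ILMN_1733756, listed for transcript NM_080645, is the one described above. The dimmer, ILMN_1741695, listed for NM_004370, had log2 signals of 4.73, 4.60 and 4.83 in the resistant cells, against 5.32, 4.99 and 5.46 in the parental cells. It was detected on all parental arrays and none of the resistant arrays, and its fall was at least 1.23-fold (limma adjusted p = 0.0124 over 14197 probes). It was tested only because the parental arrays, where it is high, detected it. With the mean of both probes, the log2 difference of COL12A1 was -0.24 (limma adjusted p = 0.0443). That mean takes in the dimmer probe at its undetected resistant signals, so it is not a measured fall of the gene.

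**Figure D4:**
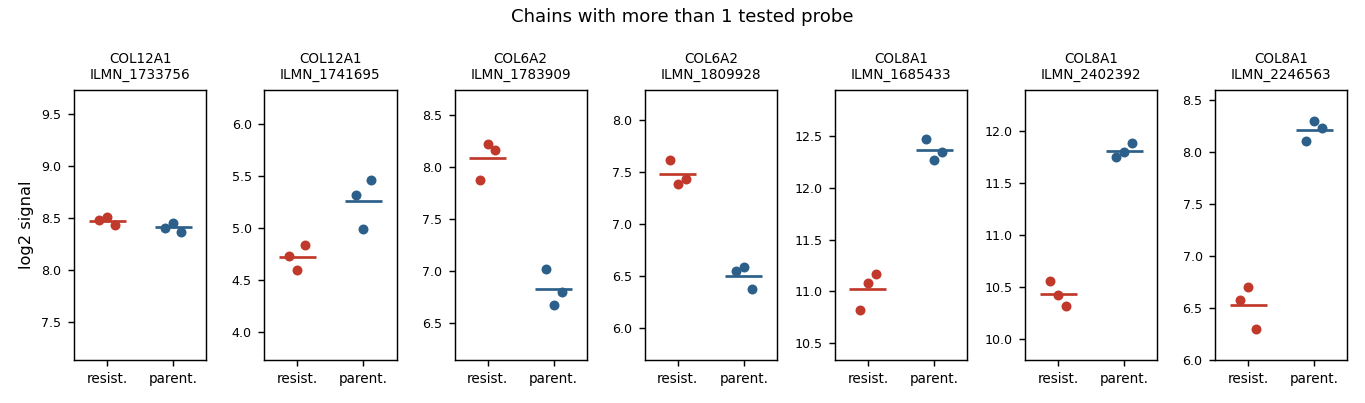
Normalised log2 signal on the 3 resistant arrays (left, red) and the 3 parental arrays (right, blue) for each probe of the chains with more than 1 tested probe. Every panel spans the same number of log2 units, and lines mark group means. The 3 COL8A1 probes are all lower and both COL6A2 probes higher in the resistant cells, and the dimmer COL12A1 probe was detected on no resistant array.

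Chains that share a trimer were set against each other in 4 pairs, by an exact two-sided permutation test over the 6 arrays. That test cannot give a p below 0.1, so no pair could pass, and it cannot decide whether the chains of a pair differ. The log2 difference of COL5A1 exceeded that of COL5A2 by 1.86 (SE 0.17, exact permutation p = 0.1, adjusted p = 0.2 over the 4 pairs). COL1A2 has only a bound, so no value is given for COL1A1 against it, though that pair is counted among the 4. COL4A1 and COL4A2 differed by 0.01 (SE 0.16, exact permutation p = 1), and COL6A1 minus COL6A2 was -0.34 (SE 0.26, exact permutation p = 0.3).

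Neighbouring genes were set beside each chain, up to 10 tested genes on either side by gene order, other collagens left out. The shares over all tested genes were 22.4% higher and 23.0% lower. COL1A1, on chromosome 17, had neighbours with a median log2 difference of 0.04, with 7 of 20 higher and 3 lower. Those of COL5A1, on chromosome 9, had a median of 0.23, with 9 of 20 higher and 0 lower. COL5A2, on chromosome 2, had neighbours with a median of 0.25, with 10 of 20 higher and 0 lower, beside its own difference of 0.39. COL4A4, on the same chromosome, had neighbours with a median of 0.30, with 10 of 20 higher and 2 lower, beside its own 0.35. COL7A1 had neighbours with a median of -0.27, with 10 of 20 lower and 3 higher. COL6A1, COL6A2 and COL18A1 lie near each other on chromosome 21, and the medians of their neighbours were -0.17, -0.16 and -0.17. Those of COL4A1 and COL4A2, on chromosome 13, were -0.21 for both. COL13A1, on chromosome 10, had neighbours with a median of -0.36, with 10 of 20 lower and 0 higher. Those of COL8A1, on chromosome 3, had a median of -0.07, with 2 of 20 higher and 6 lower. The medians beside COL1A2 and COL27A1 were 0.15 and 0.20, with 7 and 8 of 20 higher and 4 and 1 lower. Beside COL4A5 the median was -0.13, with 3 of 20 higher and 7 lower. For COL12A1, COL8A2 and COL16A1 the medians were -0.005, -0.11 and -0.01, with 5, 1 and 3 of 20 higher and 3, 5 and 2 lower. The part of the position in these differences was not tested.

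Over all tested genes 22.4% rose and 23.0% fell, with a median log2 difference of -0.004. The counts of each list in the fit used here are to be read against these shares. Counts under median scaling are to be read against 1466 genes higher and 3774 lower of 10672 in that setting. Enzymes and chaperones that modify and fold collagen chains were mostly higher, from a list of 21 of which 17 were tested. Of these 11 rose and 2 fell, with a median log2 difference of 0.32. SERPINH1, the collagen chaperone HSP47, rose by 0.70 (limma adjusted p = 2.02e-04), PLOD1, a lysyl hydroxylase, by 0.90 (limma adjusted p = 4.61e-04) and P4HA2, a subunit of prolyl 4-hydroxylase, by 0.57 (limma adjusted p = 0.00429). P3H2, a prolyl 3-hydroxylase known to act on type IV collagen, fell by 1.49 (limma adjusted p = 1.45e-05). The other member that fell, TMEM38B, an ion channel of the endoplasmic reticulum, had a difference of -0.35 (limma adjusted p = 0.00667). Under median scaling 6 rose and 2 fell.

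Of 7 tested genes, from 14, for trimming and cross-linking, 3 rose and 2 fell, against 22.4% and 23.0% of all genes, with a median log2 difference of 0.32. LOX, which starts the cross-linking of fibrils, rose by 0.88 (limma adjusted p = 9.59e-05), and PXDN, the peroxidasin that cross-links type IV collagen, rose by 0.96 (limma adjusted p = 0.00194). PCOLCE2, an enhancer of procollagen C-proteinase, fell by 1.89 (limma adjusted p = 2.32e-06), and BMP1, that proteinase itself, fell by 0.63 (limma adjusted p = 0.00827). Without background correction these 2 differences were -1.02 and -0.36.

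Of 6 tested collagen receptors, from 8, 3 rose and none fell, against 22.4% and 23.0% of all genes, with a median log2 difference of 0.31. ITGA11, the integrin chain that binds type I collagen with ITGB1, rose by 1.20 (limma adjusted p = 4.88e-04), the receptor kinase DDR1 by 0.87 (limma adjusted p = 0.00105) and ITGB1 by 0.35 (limma adjusted p = 0.0141). Without background correction ITGA11 gave 0.62 and DDR1 0.57. The related kinase DDR2 gave -0.20 and did not pass (limma adjusted p = 0.144). Under median scaling 3 rose and 1 fell.

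Of 9 tested partners of type IV collagen in the basement membrane, from 15, 2 rose and 3 fell, near the 22.4% and 23.0% of all genes, with a median log2 difference of -0.10. The proteoglycan agrin (AGRN) rose by 0.73 (limma adjusted p = 3.38e-04) and the laminin chain LAMC1 by 0.38 (limma adjusted p = 0.00559). The laminin chains LAMA5 and LAMB1 fell by 1.08 (limma adjusted p = 9.70e-05) and fell by 0.34 (limma adjusted p = 0.0112), and LAMB3 had a difference of -0.28 (limma adjusted p = 0.0271). The LAMC1 call was lost under median scaling (adjusted p = 0.0674).

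Transforming growth factor beta is a known inducer of collagen genes. Of 14 tested genes of its pathway, from 19, 7 rose and 1 fell, against 22.4% and 23.0% of all genes, with a median log2 difference of 0.29. The ligand TGFB2 rose by 2.23 (limma adjusted p = 8.75e-06), the induced matrix protein TGFBI by 1.06 (limma adjusted p = 2.34e-05), LTBP2, of the family that binds latent ligand, by 0.86 (limma adjusted p = 6.68e-04) and the signal transducer SMAD3 by 0.63 (limma adjusted p = 0.00164). Without background correction the difference of TGFB2 was 1.40. The member that fell was the receptor TGFBR2, with a difference of -0.61 (limma adjusted p = 0.00103). SMAD2 gave -0.19 and SMAD7 0.01, and neither passed the threshold. Under median scaling 5 rose and 2 fell.

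**Figure D5:**
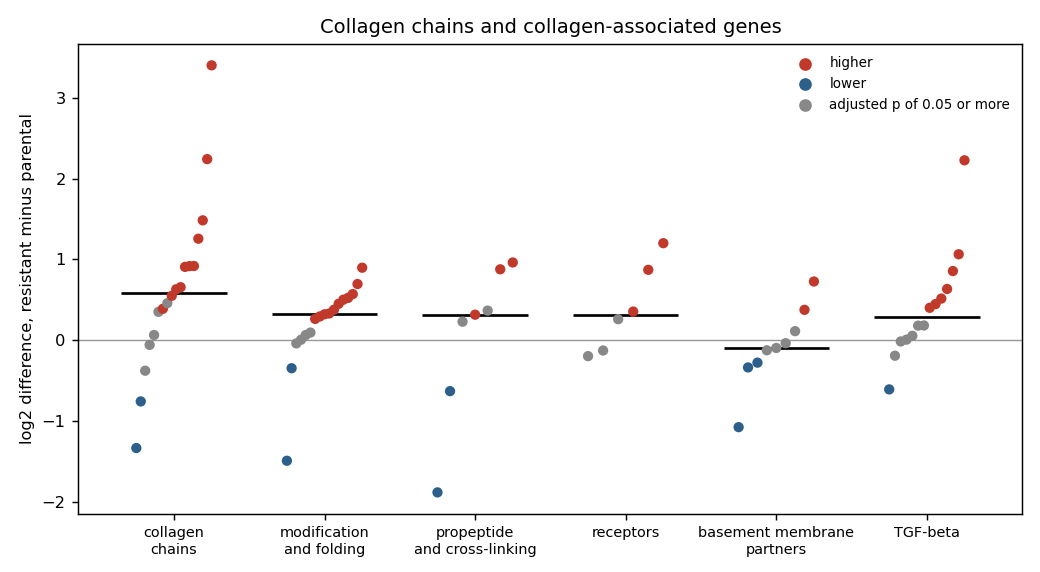
Log2 difference between resistant and parental arrays for each tested collagen chain and each tested gene of the 5 associated lists, ordered by size within a column, with a line at the median. Medians are 0.59 for the chains, 0.32 for both enzyme lists, 0.31 for receptors, -0.10 for basement membrane partners and 0.29 for the growth factor pathway.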

How the data were processed

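Biotin-labelled cRNA of 6 samples was hybridised to Illumina arrays, per the labels' protocols. Per the file headers, the deposited table holds the intensity (average signal) of 47225 probes per array beside a detection p-value, and a separate table gives deposited log2 values by an unstated method. In 3269 consecutive rows the 2 columns were exchanged and the natural log of the intensity was given. These rows were restored, after which intensities and deposited log2 values had a rank correlation of 1. The detection p-values are the authors', and the sources used here do not give their basis.

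Intensities were corrected with normexp from the detection p-values (offset 16), quantile normalised and log2 transformed (limma 3.58.1, R 4.3.3). Probes with a detection p-value under 0.05 on all arrays of a group were kept (17843, of which 14197 had 1 gene name). Symbols of the platform annotation were brought up to date through gene identifiers in the RefSeq table of GRCh38.p14 (99.9% matched). The brightest kept probe represented a gene. The test was lmFit with eBayes without a covariate, two-sided, with Benjamini-Hochberg adjustment over 10672 genes. Where no array of the dimmer group detected a gene, its fold is a bound, from the brighter mean against the higher of that group's lowest detected and own signal. The functions were also run on simulated data with 200 changed genes, and the recovery is not given here. The number of arrays limits the precision.

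All tested chains are named, with up to 4 called genes with the largest change per associated list, and TMEM38B, LAMB3, DDR2, TGFBR2, SMAD2 and SMAD7, chosen after their values were seen. The members and lists were chosen with earlier results of these data known. The RefSeq promoter table held 31 of the 43 chains.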

Additional observations from a re-analysis of the deposited data

How the results depend on the processing

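Every comparison was repeated under 19 other settings. Over these, COL1A1, COL5A1, COL4A1, COL4A2, COL4A5, COL6A1, COL6A2, COL18A1, COL8A1 and COL13A1 kept their direction and their side of the threshold. COL1A2 did so in the 17 settings that tested it. It entered through the resistant arrays, where it is high, and dropped out under the stricter detection rules. Its steady call therefore cannot show that its rise holds without that selection. Without background correction the log2 differences of COL1A1 and COL18A1 were 1.97 and 0.80, those of COL6A2, COL4A5, COL1A2 and COL7A1 were 0.80, 0.38, 0.21 and 0.17, and the median of the tested chains was 0.28. The deposited log2 values gave 2.04 for COL1A1. Without the detection filter all 43 chains were tested, with 10 higher, 2 lower and a median of 0.12. Of all 20044 genes in that setting, 2055 were higher and 2125 lower, with a median of 0.002. COL12A1 changed direction under median scaling (-0.11) and with the mean of its probes (-0.24), which takes in the dimmer probe, undetected on the resistant arrays. COL8A2 changed direction without resistant replicate 3 (0.050) and without parental replicate 3 (0.032), within a range of -0.18 to 0.050 over all settings. The causes were not tested.

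Counts moved past 1.5 times under median scaling alone: 6 modification and folding genes were higher, 1 receptor lower, 1 basement membrane partner higher and 2 growth factor pathway genes lower. Leaving out 1 array gave 9 to 11 chains higher and 2 to 3 lower. In those fits 1942 to 2260 of all genes were higher and 2006 to 2242 lower, of 10785 to 10891 tested. Same-numbered arrays did not deviate together from their group means (correlations -0.06, 0.01 and 0.06). Correlations this small do not show that the samples were unpaired, so whether the numbers pair them stays unknown. With the replicate number as a block 10 chains were higher and 3 lower, COL7A1 losing its call (adjusted p = 0.0539) and COL16A1 gaining one (adjusted p = 0.0399). Of all 10672 genes in that fit, 2258 were higher and 2320 lower. Dim probes limit COL1A2, COL27A1, COL7A1 and COL16A1, whose signals lie close to the lowest detected ones. The parental signals of COL1A1 also lie close to the lowest detected ones, which limits its fold.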
